A study of Mus musculus with 4 samples.

Results

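In mouse embryonic stem cells treated with the Cdk9 inhibitor flavopiridol, 414 of 7705 windows of 1 kb (5.37%) carried fewer RNA polymerase II (Pol II) tags with a hairpin against NelfE and kept most of them with a hairpin against Spt4. The windows were chosen by measured values. A window of chromosomes 1 to 19 entered with at least 30 tags in the control library, a shNelfE to shControl ratio of 0.6 or less, a shSpt4 to shControl ratio of 0.8 or more and a shSpt5 to shControl ratio above 0.25. Ratios are of normalised tags, scaled to 1000000 kept tags a library, where reads that share a position and strand count as 1 tag. The ratios within these windows are therefore a description. Where a value of all windows stands beside one that the choice used, it is given as background and nothing is read from the difference.

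Pol II was mapped by ChIP-seq, in which chromatin is precipitated with an antibody and its DNA sequenced. The antibody bound the N-terminus of Rpb1, the largest Pol II subunit. The cells were V6.5 embryonic stem cells of C57BL/6-129 background, with 1 library each for a hairpin against NelfE (shNelfE), against Spt4 (shSpt4), against Spt5 (shSpt5) and a control hairpin (shControl). In every culture, the control included, the hairpin was present for about 4 days before fixation, and flavopiridol at 1 µM for the last 1 h. The shNelfE, shSpt4 and shSpt5 cells had grown for 2 passages without feeder cells and their libraries shared a flow cell, whereas the shControl cells had grown for 1 passage without feeders and that library was run on another flow cell. In ratios to shControl the knockdown, the passages and the flow cell cannot be told apart, and the shNelfE to shSpt4 ratio, which lies within 1 flow cell, is given beside them. No difference below has a replicate check, and how far each hairpin lowered its target was not measured in these libraries.

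Soon after Pol II starts transcription it pauses near the promoter. Spt4 and Spt5 together form the complex DSIF, which binds the elongating polymerase, and NelfE is a subunit of NELF, which joins DSIF on the paused polymerase. Cdk9 is the kinase that phosphorylates DSIF, NELF and Pol II and so lets the polymerase go on into the gene, and flavopiridol blocks it. Knockdown of DSIF and NELF subunits under this block asks how polymerase that cannot enter elongation depends on each complex.

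Kept tags numbered 2938052 in shNelfE, 2646944 in shSpt4, 3116313 in shSpt5 and 3170090 in shControl. The 7705 windows held 12.1% of the tags of shNelfE, 13.3% of shSpt4, 9.55% of shSpt5 and 16.3% of shControl. Their median ratios to shControl were 0.716 in shNelfE, 0.778 in shSpt4 and 0.558 in shSpt5, so that the typical window was below the control in each knockdown. Bins with 1 to 9 tags in the 4 libraries together went the other way, at 1.13 in shNelfE, 1.13 in shSpt4 and 1.24 in shSpt5. How much of the lower tags at windows is weaker enrichment of a library and how much is less Pol II was not tested. Repeated positions, reduced to 1 tag, made up 10.2% of the reads of shNelfE, 8.13% of shSpt4, 17.7% of shSpt5 and 9.07% of shControl.

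The 3 cut-offs were met to very different degrees on their own. Ratios of 0.6 or less were found at 1854 windows in shNelfE (24.1%), at 1812 in shSpt4 (23.5%) and at 4474 in shSpt5 (58.1%). Spt4 ratios of 0.8 or more were found at 3577 windows (46.4%) and Spt5 ratios above 0.25 at 7157 (92.9%). Of the 1854 windows low in shNelfE, 1425 (76.9%) were below 0.8 in shSpt4 as well. A further 15 were dropped for their Spt5 ratio, and the 414 that remained were 22.3% of the windows low in shNelfE. A shSpt4 ratio of 0.8 or more was thus the less frequent case among the windows low in shNelfE. It was also the less frequent case of all windows (46.4%), whose median shSpt4 ratio of 0.778 is below that cut-off.

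**Figure D1:**
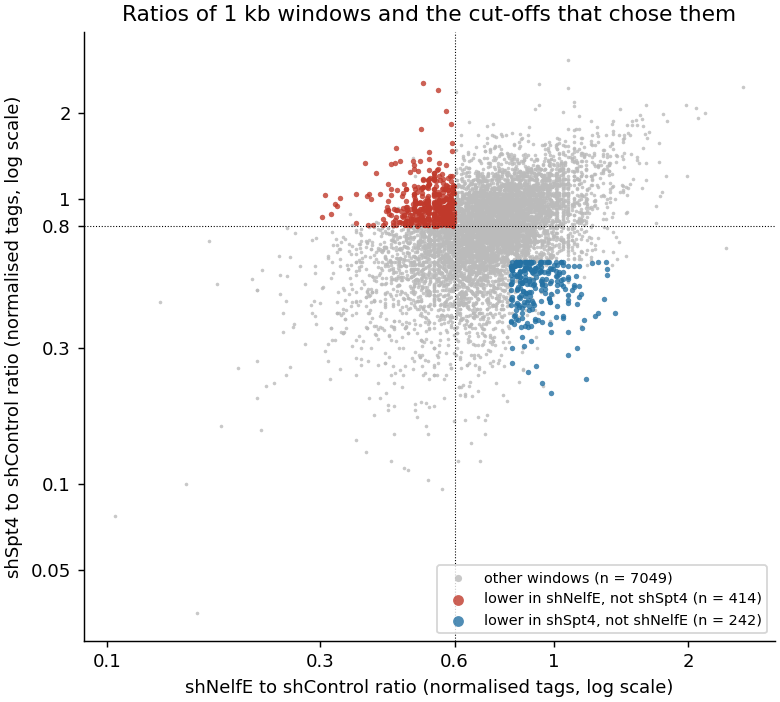
Each point is a window with at least 30 control tags, with its shNelfE to shControl ratio on the horizontal axis and its shSpt4 to shControl ratio on the vertical axis (both log scales). The 414 windows lower in shNelfE but not shSpt4 fill the upper left corner cut by the dotted lines at 0.6 and 0.8, the 242 windows of the exchanged rule lie below on the right, and the remaining windows run without a gap between them.

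With the parts of NelfE and Spt4 exchanged, the same cut-offs chose 242 windows (3.14%). Windows at 0.8 or more in all 3 knockdown libraries numbered 644 (8.36%). The lead of 414 over 242 depends on the scaling: when each library was scaled by its median ratio over windows, the counts were 110 for the NelfE rule and 518 for the exchanged rule. It also narrowed with fewer tags. Among windows with 30 to 49 control tags, 194 of 3430 (5.66%) met the NelfE rule and 166 (4.84%) the exchanged one. Among windows with 50 to 99 control tags the counts were 170 of 3084 (5.51%) and 64 (2.08%), and with 100 or more they were 50 of 1191 (4.20%) and 12 (1.01%). The exchanged set was thus mostly made of windows near the tag minimum, and the NelfE set less so.

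The 414 windows had a median of 24.5 tags in shNelfE, 41 in shSpt4, 29.5 in shSpt5 and 51.5 in shControl. Normalised tags had medians of 8.34 in shNelfE (range 3.06 to 35.1), 15.5 in shSpt4 (range 7.93 to 56.3), 9.47 in shSpt5 (range 2.57 to 34.7) and 16.2 in shControl (range 9.46 to 58.7). These are moderate levels, since the median of all 7705 windows in shControl was 16.7 and the highest 366. The median ratio to shControl was 0.539 in shNelfE (0.303 to 0.599), 0.926 in shSpt4 (0.804 to 2.55) and 0.571 in shSpt5 (0.251 to 1.55). By the choice, shNelfE was low and shSpt4 near the control, and the median of shSpt5 lay close to that of shNelfE.

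With few tags a window, counting error is wide. Each ratio has an exact 95% binomial interval, which covers counting error only, and PCR copies are not independent molecules. The interval of the shNelfE to shControl ratio was wholly below 1 in 370 of the 414 windows, where 35.7% of all windows had such an interval. That of the shNelfE to shSpt4 ratio was wholly below 1 in 270, where 10.8% of all windows had one. For shSpt4 against shControl 0 intervals were wholly below 1 and 6 wholly above, where the shares of all windows were 27.6% below and 1.88% above. The cut-offs on both ratios shaped these counts, and nothing is read from them.

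The cut-offs ran through a continuous spread of windows. At the tag minimum, chromosome 1, 138524000 to 138524999, entered with 12 tags in shNelfE, 27 in shSpt4, 18 in shSpt5 and 30 in shControl, and 157735000 to 157735999 stayed out with 11 in shNelfE, 21 in shSpt4, 24 in shSpt5 and 29 in shControl. At the NelfE cut-off, chromosome 7, 116098000 to 116098999, was inside at 0.599 and chromosome 17, 46235000 to 46235999, outside at 0.601. At the Spt4 cut-off, chromosome 17, 46113000 to 46113999, was inside at 0.804, and chromosome 4, 133160000 to 133160999, outside at 0.798. At the Spt5 cut-off the nearest windows were chromosome 19, 5637000 to 5637999, inside at 0.251 and chromosome 6, 122452000 to 122452999, outside at 0.236. All positions are those of the deposited files on the mouse build mm8. Annotation of that build was not used here, so the windows carry no gene names and no sequence.

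The window with most control tags lay on chromosome 10, 61997000 to 61997999. It held 103 tags in shNelfE, 137 in shSpt4, 108 in shSpt5 and 186 in shControl. Its shNelfE tags were 0.597 of the control (0.465 to 0.764), its shSpt4 tags 0.882 (0.702 to 1.11) and its shSpt5 tags 0.591 (0.462 to 0.753). The knockdown of NelfE and that of Spt5 thus gave nearly the same level here.

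The next in order was chromosome 5, 124588000 to 124588999, with 74 tags in shNelfE, 116 in shSpt4, 77 in shSpt5 and 172 in shControl. Its shNelfE ratio of 0.464 was the lowest among the 10 windows with most control tags. Chromosome 6, 117845000 to 117845999, followed with 82 tags in shNelfE, 132 in shSpt4, 95 in shSpt5 and 162 in shControl. Its shSpt4 ratio was 0.976 (0.770 to 1.24) and its shNelfE ratio 0.546 (0.414 to 0.717).

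Chromosome 7, 19035000 to 19035999, held 68 tags in shNelfE, 123 in shSpt4, 56 in shSpt5 and 150 in shControl. It had the lowest shNelfE to shSpt4 ratio of the 10, at 0.498 (0.365 to 0.675), and shSpt5 was lower still at 0.380 of the control. Chromosome 4, 116125000 to 116125999, held 79 tags in shNelfE, 118 in shSpt4, 71 in shSpt5 and 146 in shControl. Here shSpt4 was at 0.968 of the control (0.753 to 1.24) and shNelfE at 0.584 (0.438 to 0.773).

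The other 5 of the 10 lay on chromosome 10 at 118643000 to 118643999, on chromosome 9 at 108375000 to 108375999 and 21366000 to 21366999, and on chromosome 11 at 4999000 to 4999999 and 86574000 to 86574999. They held 74 to 84 tags in shNelfE and 97 to 109 in shSpt4. The shSpt5 library had 67 to 97 tags there and shControl 138 to 157. In each of the 10 the shNelfE to shSpt4 interval was wholly below 1, which the cut-offs on both ratios favoured, and nothing is read from it. None of their shSpt4 to shControl ratios passed 1, and shSpt5 was at 0.380 to 0.628 of the control.

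**Figure D2:**
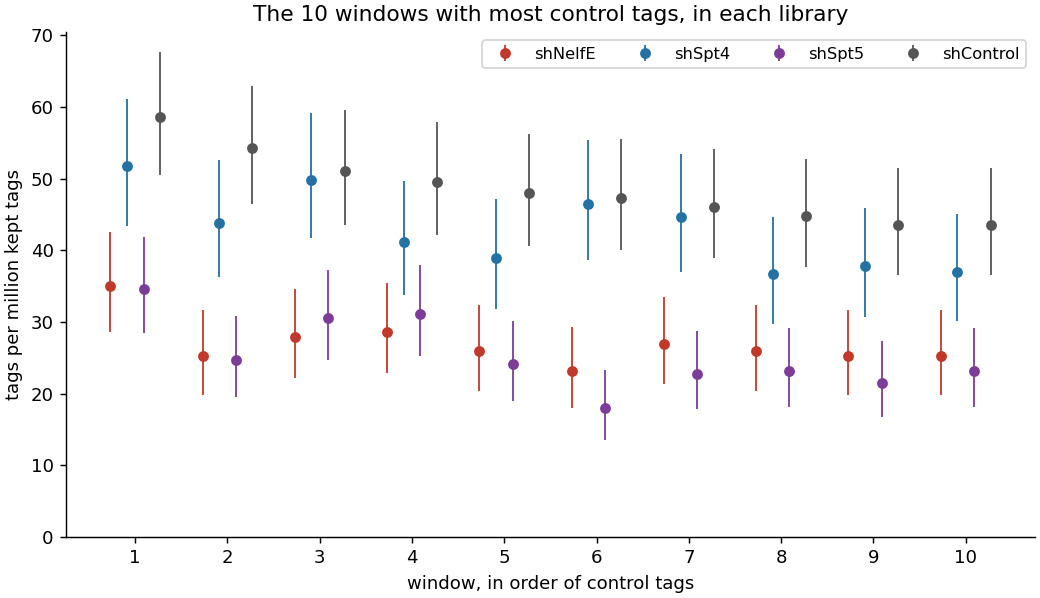
Normalised tags (per 1000000 kept tags, vertical axis, from 0) in shNelfE, shSpt4, shSpt5 and shControl at the 10 windows with most control tags, which stand in that order on the horizontal axis. Points are the libraries' values and bars exact 95% Poisson intervals of the tag counts. In window 1 the values are 35.1 in shNelfE, 51.8 in shSpt4, 34.7 in shSpt5 and 58.7 in shControl. In every window shNelfE and shSpt5 lie below shSpt4 and shControl, an order that the choice of windows set for shNelfE.

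The 10 lowest shNelfE ratios ran from 0.303 to 0.381, at windows with 30 to 63 control tags. Chromosome 2, 143856000 to 143856999, had 9 tags in shNelfE, 23 in shSpt4, 22 in shSpt5 and 32 in shControl, and its shNelfE ratio of 0.303 had an interval of 0.127 to 0.651. Chromosome 3, 101733000 to 101733999, had 16 tags in shNelfE, 48 in shSpt4, 26 in shSpt5 and 56 in shControl. With more tags its shNelfE ratio of 0.308 was better bounded (0.165 to 0.545), and its shSpt4 ratio was 1.03 (0.683 to 1.54).

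Chromosome 1, 74594000 to 74594999, had 10 tags in shNelfE, 25 in shSpt4, 9 in shSpt5 and 34 in shControl. At this window shSpt5 was as low as shNelfE, with ratios of 0.317 in shNelfE and 0.269 in shSpt5. The remaining 7 of the 10 lowest shNelfE ratios ran from 0.324 at chromosome 17, 28055000 to 28055999, to 0.381 at chromosome 12, 111149000 to 111149999. One of them, chromosome 18, 66583000 to 66583999, had 22 tags in shNelfE, 70 in shSpt4, 60 in shSpt5 and 63 in shControl. Within this window shNelfE alone was low, with a ratio of 0.377 (0.221 to 0.621), against 1.33 in shSpt4 (0.933 to 1.90) and 0.969 in shSpt5 (0.669 to 1.40). Its flanks at 1 to 2 kb, which the choice did not use, held 31 tags in shNelfE, 71 in shSpt4, 59 in shSpt5 and 35 in shControl. In the flanks shNelfE was thus near the control, and shSpt4 and shSpt5 were above it.

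Spt5 entered the rule only through its lower limit, and its ratios spread widely. In 233 of the 414 windows (56.3%) the shSpt5 ratio was 0.6 or less. The 58.1% of all windows at this level includes windows at or below 0.25, which the rule left out, so the shares are not compared. The ratio was between 0.6 and 0.8 in 123 windows (29.7%), where 25.6% of all windows were. It was 0.8 or more in 58 (14.0%), where 16.3% of all windows were. The shSpt5 ratio was below the shNelfE ratio in 167 windows and above it in 247. The median shNelfE to shSpt5 ratio was 0.922 in the 414 windows and 1.29 in all windows. The cut-offs on both ratios shaped this order, and nothing is read from it.

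At the low end of shSpt5 were windows that kept Pol II in shSpt4 and held about 0.25 of the control level in shSpt5. Chromosome 19, 5637000 to 5637999, had 28 tags in shNelfE, 53 in shSpt4, 17 in shSpt5 and 69 in shControl. It was at 0.438 of the control in shNelfE (0.272 to 0.688), at 0.920 in shSpt4 (0.631 to 1.34) and at 0.251 in shSpt5 (0.138 to 0.431). Chromosome 17, 30303000 to 30303999, and chromosome 14, 53879000 to 53879999, both had shSpt5 ratios of 0.254, just above the cut-off.

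At the other end shSpt5 was above the control. Chromosome 10, 80333000 to 80333999, had 18 tags in shNelfE, 28 in shSpt4, 55 in shSpt5 and 36 in shControl, a shSpt5 ratio of 1.55 (1.00 to 2.44). Its shSpt5 interval was the only 1 of the 414 that lay wholly above 1, as did 0.896% of those of all windows, and its lower bound rounds to 1.00. Chromosome 9, 37406000 to 37406999, and chromosome 17, 29191000 to 29191999, both had shSpt5 ratios of 1.37, with lower bounds of 0.845 and 0.881.

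At 6 windows the shSpt4 to shControl interval lay wholly above 1 while the shNelfE ratio was below 1. These 6 windows were singled out after their values were seen. Such a shSpt4 interval was found at 1.88% of all windows. The intervals are not adjusted for the number of windows, and whether 6 is more than counting error gives was not tested. The strongest was chromosome 17, 28821000 to 28821999, with 33 tags in shNelfE, 149 in shSpt4, 69 in shSpt5 and 70 in shControl. Its shSpt4 ratio was 2.55 (1.91 to 3.44), its shNelfE ratio 0.509 (0.326 to 0.780) and its shSpt5 ratio 1.00 (0.709 to 1.42). The excess in shSpt4 stood on both strands, with 72 plus and 77 minus tags, against 34 plus and 36 minus tags in shControl.

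Chromosome 10, 56065000 to 56065999, had 27 tags in shNelfE, 106 in shSpt4, 43 in shSpt5 and 53 in shControl, a shSpt4 ratio of 2.40 (1.71 to 3.40). The flanks at 1 to 2 kb, which the choice did not use, held 86 tags in shNelfE, 162 in shSpt4, 97 in shSpt5 and 103 in shControl. Pol II there was higher in shSpt4 too, at 1.88 of the control (1.46 to 2.44), and at 0.901 in shNelfE (0.669 to 1.21). Over the flanks of all 6 windows together the ratio to the control was 0.812 in shNelfE (0.687 to 0.959), 1.33 in shSpt4 (1.14 to 1.54) and 0.838 in shSpt5 (0.712 to 0.986). Without the chromosome 10, 56065000 window, the shSpt4 ratio over the flanks of the other 5 was 1.08 (0.891 to 1.31). There shNelfE was at 0.772 (0.629 to 0.946) and shSpt5 at 0.785 (0.642 to 0.958). Of the 232 control tags in these flanks, 161 lay beside chromosome 10, 117112000, where shSpt4 was at 0.855 of the control (0.667 to 1.09). Beside the rest, shSpt4 ran from 1.05 at chromosome 11, 120132000 (0.474 to 2.29), to 2.21 at chromosome 13, 111515000 (1.08 to 4.73). Only the interval at chromosome 13 lay wholly above 1. The sum over the 5 thus cannot show whether the excess was limited to chromosome 10, 56065000.

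Of the 414 windows, 12 lay next to another of them, as 6 pairs, and 402 did not. Few neighbours could belong to the set, since 39.1% of the 414 had an eligible window right beside them and 5.37% of eligible windows met the rule. Whether pairs were rarer or more frequent than these shares give was not tested. The pair with most control tags, chromosome 7, 144749000 to 144750999, held 89 tags in shNelfE, 160 in shSpt4, 74 in shSpt5 and 187 in shControl. Over its 2 kb the ratio to the control was 0.514 in shNelfE (0.394 to 0.664), 1.02 in shSpt4 (0.824 to 1.27) and 0.403 in shSpt5 (0.303 to 0.530). The other pairs lay on chromosome 12 at 81562000 to 81563999, on chromosome 11 at 77980000 to 77981999, on chromosome 14 at 53879000 to 53880999, on chromosome 13 at 96475000 to 96476999 and on chromosome 3 at 88618000 to 88619999. Across the 6 pairs, shNelfE ran from 0.482 to 0.562 of the control and shSpt4 from 0.843 to 1.13.

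The windows were spread over all 19 chromosomes. Their share of the eligible windows ran from 3.60% on chromosome 19 (10 of 278) to 8.84% on chromosome 12 (22 of 249), and chromosome 11 held the most with 44 of 780. Of the 414, 39.1% had another window with 30 or more control tags right beside them, as did 41.2% of all windows. None lay within 10 kb in 51.9%, against 46.9% of all windows.

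Within the windows, tags gathered at 1 summit much as elsewhere. The 300 bp around the summit held 61.6% of the tags in shNelfE, 63.0% in shSpt4, 60.9% in shSpt5 and 63.9% in shControl. For all 7705 windows the shares were 60.2% in shNelfE, 61.6% in shSpt4, 58.4% in shSpt5 and 61.7% in shControl. The shNelfE to shControl ratio was 0.513 (0.499 to 0.527) within 150 bp of the summit and 0.564 (0.544 to 0.584) in the rest of the window. Over all windows these were 0.726 (0.722 to 0.730) and 0.772 (0.767 to 0.777), so a lower ratio at the summit than beside it was seen over all windows too. Plus tags made up 50.6% in shNelfE, 49.7% in shSpt4, 50.0% in shSpt5 and 50.1% in shControl.

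**Figure D3:**
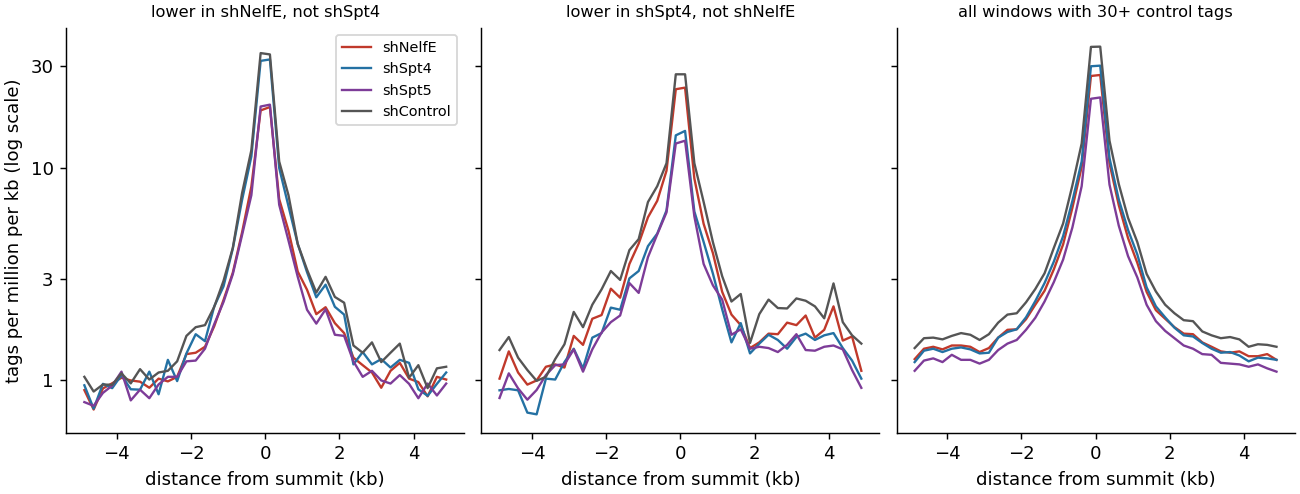
Normalised tags per kb (vertical axis, log scale) in 250 bp steps by distance from the summit (horizontal axis, kb), for the 414 windows, for the 242 of the exchanged rule and for all 7705. In the left panel the highest step of shNelfE reaches 19.3 and that of shSpt5 19.8, against 32.3 in shSpt4 and 34.6 in shControl, an order that the choice of windows set at the centre.

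Tags that the rule did not use give a smaller difference. Windows were chosen by the same cut-offs on tags of 1 strand alone, with at least 15 control tags there, and read on the other strand. This chose 560 windows on plus tags and 618 on minus tags. On the strand used, shNelfE was at 0.510 of the control (0.501 to 0.520) and shSpt4 at 0.983 (0.969 to 0.999). On the strand not used, shNelfE was at 0.696 (0.685 to 0.708) and shSpt4 at 0.906 (0.891 to 0.921). Both had moved toward the values of all windows on the unused strand, 0.753 in shNelfE (0.750 to 0.756) and 0.824 in shSpt4 (0.821 to 0.828). The unused strand therefore showed shNelfE below the typical window and shSpt4 above it, but neither the 0.6 nor the full control level.

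The shNelfE to shSpt4 ratio, which needs no control library, was 0.519 (0.509 to 0.529) on the strand used and 0.769 (0.755 to 0.783) on the strand not used. Over all windows it was 0.914 (0.909 to 0.918), and the intervals do not overlap. In windows chosen on 1 strand by the exchanged rule, the unused strand gave 1.19 (1.16 to 1.23), on the opposite side of 1. In windows chosen on 1 strand at 0.8 or more in all 3 knockdown libraries, the unused strand gave 0.871 (0.860 to 0.883). This too was below the value of all windows, but above the 0.769 of the NelfE rule, with intervals that do not overlap. In windows chosen by the NelfE rule, the shSpt5 to shControl ratio of the unused strand was 0.622 (0.612 to 0.633). Over all windows it was 0.594 (0.591 to 0.597).

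**Figure D4:**
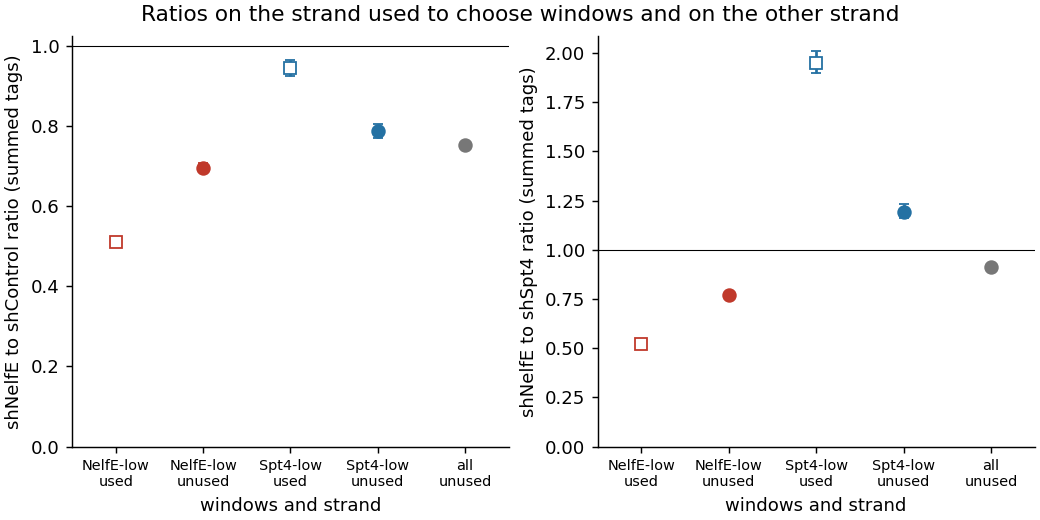
Ratios of summed normalised tags on the strand used to choose windows (open squares) and on the strand not used (filled circles), with exact 95% binomial intervals. The NelfE rule on 1 strand chose 560 windows on plus and 618 on minus tags, sets that differ from the 414 windows. In them the shNelfE to shControl ratio is 0.510 on the used and 0.696 on the unused strand. Their shNelfE to shSpt4 ratio is 0.519 on the used and 0.769 on the unused strand.

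Single windows met the rule anew on the other strand in a minority of cases. Of 459 windows chosen on plus tags that had 15 control tags on minus as well, 78 (17.0%) met the whole rule there, against 7.80% of all windows. Of 525 chosen on minus tags, the same 78 windows (14.9%) met it on plus, against 6.82%. The exchanged rule behaved alike, with 47 of 294 (16.0%, against 4.46%) and 47 of 300 (15.7%, against 4.37%). In the 414 windows themselves, whose tags of both strands were used, the shNelfE ratio was 0.6 or less on both strands in 188 (45.4%), where 12.5% of all windows were. It was below 1 on both in 410, where 75.2% of all windows were.

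The flanks were likewise not used by the rule. At 1 to 2 kb from the 414 windows, with windows of the set left out, normalised tags per kb were 3.06 in shNelfE, 3.57 in shSpt4, 2.70 in shSpt5 and 3.96 in shControl. The ratio to the control was 0.774 in shNelfE (0.758 to 0.791), 0.901 in shSpt4 (0.883 to 0.920) and 0.683 in shSpt5 (0.669 to 0.698). Around all windows it was 0.803 in shNelfE (0.799 to 0.807), 0.861 in shSpt4 (0.857 to 0.865) and 0.675 in shSpt5 (0.672 to 0.679). The flanks thus leaned the same way as the windows, by far less, and shNelfE was only a little below the usual flank. Scaled by the median ratio, the shNelfE flank ratio of the windows then chosen was 1.03 (0.989 to 1.07), not distinguishable from the control. This scaling divides every shNelfE to shControl ratio by 0.743, and so raises the flanks of all windows as well. Set against 1, the 1.03 thus does not show how these flanks stood to the usual flank.

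Between the knockdowns the flanks at 1 to 2 kb gave a shNelfE to shSpt4 ratio of 0.859 (0.839 to 0.878), against 0.933 (0.928 to 0.938) around all windows. Around the windows of the exchanged rule it was 1.12 (1.09 to 1.16). Around windows at 0.8 or more in all 3 knockdown libraries, with windows of that set left out, it was 0.889 (0.874 to 0.905). That interval lay below the one around all windows and overlapped the 0.839 to 0.878 above. A flank ratio below the usual one was thus not limited to windows low in shNelfE. Around the windows lower in shNelfE but not shSpt4, the ratio was 0.966 (0.934 to 0.999) at 3 to 5 kb. At 6 to 10 kb it was 0.984 (0.959 to 1.01). Around all windows it was 1.02 (1.01 to 1.03) at 3 to 5 kb and 1.04 (1.03 to 1.04) at 6 to 10 kb. Beyond 2 kb the flanks held about 1 normalised tag per kb in each library, and the gap between shNelfE and shSpt4 was small there. The shSpt5 to shSpt4 ratio at 1 to 2 kb was 0.758 (0.741 to 0.776), against 0.784 (0.780 to 0.788) around all windows.

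**Figure D5:**
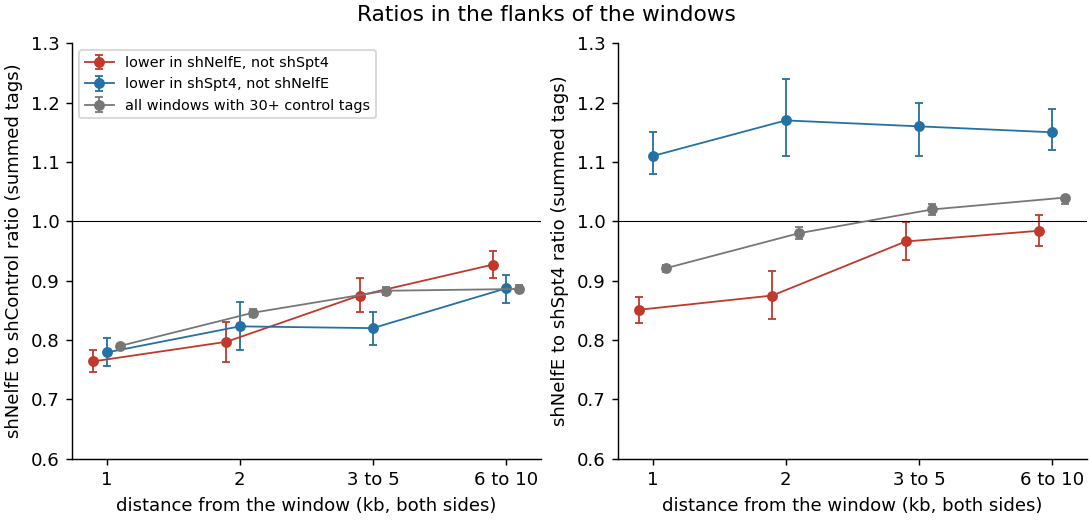
Ratios of summed normalised tags in flanks at 1, 2, 3 to 5 and 6 to 10 kb from windows lower in shNelfE but not shSpt4, from windows of the exchanged rule and from all windows, with exact 95% binomial intervals. The shNelfE to shSpt4 ratio near the 414 windows is 0.851 at 1 kb, 0.875 at 2 kb and 0.984 at 6 to 10 kb, and near windows of the exchanged rule it is above 1 at each distance.

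Window by window, the 2 adjacent kb could be read at 321 of the 414 windows, those with at least 10 control tags there. The shNelfE ratio was 0.6 or less at 58 of them (18.1%, against 20.1% of all such windows), and the whole rule was met at 22 (6.85%, against 6.03%). For shSpt4 it was 0.6 or less at 41 (12.8%, against 20.7%). A shNelfE ratio below the shSpt4 ratio was found at 222 (69.2%, against 58.8%), and at 33.3% around windows of the exchanged rule. Around windows at 0.8 or more in all 3 knockdown libraries it was found at 65.8%. The adjacent kb thus met the full rule about as often as elsewhere. In which of the 2 knockdowns was lower, they differed from the exchanged set but were close to the windows that kept Pol II in all 3.

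In shSpt4 and shSpt5 the flanks were higher where the window's shSpt5 ratio was higher. In shNelfE they were lowest where that ratio was 0.6 or less. The shNelfE interval at 0.8 or more overlaps both others, so whether these flanks rose throughout cannot be told. Around the 233 windows with a shSpt5 ratio of 0.6 or less, flank ratios to the control were 0.755 in shNelfE (0.734 to 0.776), 0.872 in shSpt4 and 0.621 in shSpt5. Around the 123 windows between 0.6 and 0.8, they were 0.801 in shNelfE (0.771 to 0.832), 0.915 in shSpt4 and 0.737 in shSpt5. Around the 58 windows at 0.8 or more, they were 0.790 in shNelfE (0.743 to 0.841), 1.02 in shSpt4 (0.959 to 1.08) and 0.847 in shSpt5 (0.798 to 0.899). Over all windows the flanks rose with the shSpt5 ratio in each of the 3 knockdowns. They were at 0.780 in shNelfE, 0.812 in shSpt4 and 0.607 in shSpt5 where the shSpt5 ratio was 0.6 or less. Between 0.6 and 0.8 they were at 0.807 in shNelfE, 0.883 in shSpt4 and 0.711 in shSpt5. Among all windows at 0.8 or more in shSpt5, the flanks were at 0.865 in shNelfE (0.855 to 0.874), 0.973 in shSpt4 (0.962 to 0.983) and 0.827 in shSpt5 (0.818 to 0.836). At the 58 windows the flanks of shSpt4 were near the control level. Those of shNelfE were below the flanks of all windows at 0.8 or more in shSpt5, with intervals that do not overlap. That comparison set includes the 644 windows chosen at 0.8 or more in all 3 knockdown libraries. The shNelfE flank around all windows, 0.803 (0.799 to 0.807), lay within the interval of the 58.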

How the data were processed

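The deposited values were positions of aligned reads, each signed by its strand, per the file headers. This other kind of value, a deposited position, carried no normalization. Bowtie aligned the reads to mm8, per the submitters' processing notes and file headers. Its version was not given in the sources used here. Whether positions count from 0 or 1 is not stated.

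From the first of the 2 read categories of each file, 1 tag per position and strand was kept, moved 41 bp toward the fragment centre and counted in 1000 bp bins, with Python 3.11.15, NumPy 2.4.6, SciPy 1.17.1 and matplotlib 3.10.9. Counts were scaled to 1000000 kept tags per library. Ratios have exact (Clopper-Pearson) 95% binomial intervals given the pair's sum. With 1 library per group no test was made, and intervals of sums treat tags as independent. The counting steps were checked on simulated data. All windows, where named, include the 414.

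The windows, cut-offs and comparisons were chosen with earlier results of these data known. Named windows were the 10 with most control tags, the 10 lowest in shNelfE, the 5 with the largest shSpt4 to shNelfE ratio, the 3 highest and 3 lowest in shSpt5, the windows of the 5 runs with most control tags, and the nearest window on each side of each cut-off. Alternatives were all reads, unmoved tags, a moved grid, other scalings, background subtraction, other tag minimums and stricter cut-offs. The background library of whole cell extract was not analysed here.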

Additional observations from a re-analysis of the deposited data

Results flagged for a closer look

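At 6 of the 414 windows shSpt4 was above shControl, with an interval wholly above 1. The rule had set shNelfE below shControl in all 414. Such a shSpt4 interval was found at 145 of all 7705 windows (1.88%), a larger share than 6 of 414. The intervals are not adjusted for the number of windows. The difference between the knockdowns was not tested. The shSpt4 to shControl ratios were 2.55 at chromosome 17, 28821000, 2.40 at chromosome 10, 56065000, 2.04 at chromosome 11, 120132000, 1.83 at chromosome 10, 117112000, 1.76 at chromosome 13, 111515000, and 1.57 at chromosome 7, 116234000. The shNelfE interval included 1 at the windows of chromosome 11 (0.293 to 1.09) and chromosome 7 (0.339 to 1.01). The flanks at 1 to 2 kb differed among them: shSpt4 was at 2.21 of the control beside the chromosome 13 window (1.08 to 4.73) and at 0.855 beside chromosome 10, 117112000 (0.667 to 1.09).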

How the results depend on the processing

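The count of 414 windows was 110 when scaled by the median ratio, 220 with at least 50 control tags, 66 with cut-offs of 0.5 and 0.9 and 50 with at least 100 control tags. Under the other alternatives it ran from 278 to 543. The exchanged rule gave 518 windows when scaled by the median ratio, 76 with 50 control tags, 109 with 120 tags over the 4 libraries, 51 with the stricter cut-offs and 12 with 100 control tags. The shNelfE flank ratio of 0.774 was 0.756 with every deposited read, 0.795 with unmoved tags, 0.692 scaled by background tags and 0.742 with background subtracted. Scaled by the median ratio, which raised every shNelfE to shControl ratio, it was 1.03 (0.989 to 1.07), reversed but with an interval that includes 1. The unused-strand shNelfE ratio of 0.696 was 0.635 scaled by background tags, 0.869 by the median ratio, 0.674 with the stricter cut-offs and 0.679 with 100 control tags. Between knockdowns the unused strand gave 0.867 (0.840 to 0.895) by the median ratio, against 1.03 over all windows. The summit share of 61.6% was 59.3% with unmoved tags, 63.3% scaled by background tags and 60.5% by the median ratio. Scaled by the median ratio, the shSpt5 ratio turned above 1 at chromosome 9, 62139000 (1.04), chromosome 10, 118643000 (1.05), and chromosome 12, 81562000 (1.03). Which windows were chosen also depended on the settings: a grid moved by 500 bp shared 167 of them (40.3%), scaling by background tags 235 (56.8%) and by the median ratio 39 (9.42%). The cause of these shifts was not tested. The minimum of 100 control tags, the flanks with windows of the set kept (0.764) and the flanks of 5 of the 6 windows high in shSpt4 (1.08, against 1.33 for the 6) were chosen after seeing the data. No paired analysis was possible because each group has 1 library. Depth limits single windows: with a median of 24.5 tags in shNelfE, most statements rest on sums.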

Other observations

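On chromosome X, which the rule left out, 19 of 148 windows with at least 30 control tags (12.8%) met the other cut-offs, and 2 (1.35%) met the exchanged rule. Median ratios to the control over these windows were 0.734 in shNelfE, 0.865 in shSpt4 and 0.573 in shSpt5. No comparison was fixed for chromosome X, and the difference from the other chromosomes was not tested.

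The second read category of the files, which the choice of windows did not use, had positions in 105 of the 414 windows. Summed over them, the ratio to the control was 0.680 in shNelfE (400 against 635 positions, 0.598 to 0.771), 0.813 in shSpt4 (0.718 to 0.920) and 0.548 in shSpt5 (0.479 to 0.626). Over all windows it was 0.857 in shNelfE, 0.932 in shSpt4 and 0.747 in shSpt5. The 5 windows with most such positions held 43.0% of them. Without windows of over 100 positions, the ratios were 0.689 in shNelfE, 0.771 in shSpt4 and 0.538 in shSpt5 at the 414 windows, against 0.742 in shNelfE, 0.789 in shSpt4 and 0.572 in shSpt5 over all windows. What separates the 2 categories is not stated in the headers.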
